A study of Mus musculus with 48 samples.

Results

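The genes described here are 8 markers of regulatory T cells and of activated T cells, read in every tumour of a bulk RNA-seq study of mouse sarcomas: Foxp3, Il2ra, Ikzf2, Ccr8, Tnfrsf4, Tnfrsf9, Tnfrsf18 and Icos. They were chosen by name, and their Ensembl identifiers are 8 of the 36854 in the count table. The study covered 48 tumours of 129/SvJae mice in 2 kinds, all carried in the gastrocnemius muscle. The 32 primary p53/MCA sarcomas were started in p53FL/FL mice aged 6 to 10 weeks with an adenovirus carrying Cre, which deletes the floxed p53 gene in the cells it infects, and then 300 µg of the carcinogen MCA (methylcholanthrene). The 16 allografts all came from 1 cell line, 402230, of the same tumour model, of which 50000 cells were injected into syngeneic mice, so they sample many hosts but only that line. When a tumour had reached about 150 mm3, its mouse received 200 µg of an isotype control antibody or of muDX400, a murine antibody against the T cell inhibitory receptor PD-1, and then 0 or 20 Gy to the hind limb. Tumours were taken on day 3. Each of the 4 treatments (0 Gy with isotype, 0 Gy with anti-PD-1, 20 Gy with isotype, 20 Gy with anti-PD-1) was given to 4 allografts and 8 primary tumours. Tumours are named below by group and a number that only identifies them.

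Regulatory T cells are CD4+ T cells that restrain other immune cells. Foxp3 is the transcription factor that defines them, and Ikzf2 encodes Helios, a zinc finger factor found in many of them. Il2ra encodes CD25, the alpha chain that gives the interleukin-2 receptor its high affinity; regulatory T cells carry it constantly, and conventional T cells gain it on activation. Ccr8 is a chemokine receptor enriched on regulatory T cells inside tumours. Tnfrsf4 (OX40), Tnfrsf9 (CD137) and Tnfrsf18 (GITR) are receptors of the tumour necrosis factor receptor family, and Icos is a relative of CD28. These last 4 deliver costimulatory signals and are high both on tumour regulatory T cells and on activated T cells, so in a bulk tumour no transcript of the 8 other than Foxp3 is close to specific for 1 cell type. Bulk RNA also cannot tell apart fewer cells of a type and less RNA per cell.

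The 8 genes lie on 5 chromosomes of the mouse genome (GRCm38, the assembly also called mm10). Foxp3 is on the X chromosome at 7573644 to 7595245 (plus strand), Il2ra on chromosome 2 at 11642807 to 11693193 (plus), Ikzf2 on chromosome 1 at 69531214 to 69687245 (minus) and Ccr8 on chromosome 9 at 120092114 to 120094906 (plus). Icos is on chromosome 1 at 60977927 to 61000320 (plus), 62.1 kb from Ctla4. Tnfrsf9 is on chromosome 4 at 150914562 to 150946102 (plus). Tnfrsf4 at 156013843 to 156016612 and Tnfrsf18 at 156026164 to 156028895 (both plus) are near neighbours on the same chromosome, 9.6 kb apart with 2 annotated genes between them. The annotation places other genes over parts of 6 of the members (for example Ppp1r3f, Ccdc22 and Flicr over Foxp3, and Camta1 over Tnfrsf9). The library kit marked the strand, but whether the counting used it is not given in the sources used here, so values of overlapping genes are uncertain to that extent.

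The 250 bases upstream of the RefSeq start site (GRCm38.p6, plus strand, 5′ to 3′) are shown for Il2ra and Tnfrsf18, the 2 members that rose after radiation in primary tumours, and for Tnfrsf4, which neighbours Tnfrsf18. Capitals mark matches to any of 4 motifs searched on both strands: kappaB (GGG, any 5 bases, CC), GAS (TTCNNNGAA, the STAT site), AP-1 (TGANTCA) and forkhead (TGTTTNC).
Il2ra, chr2:11642542-11642791: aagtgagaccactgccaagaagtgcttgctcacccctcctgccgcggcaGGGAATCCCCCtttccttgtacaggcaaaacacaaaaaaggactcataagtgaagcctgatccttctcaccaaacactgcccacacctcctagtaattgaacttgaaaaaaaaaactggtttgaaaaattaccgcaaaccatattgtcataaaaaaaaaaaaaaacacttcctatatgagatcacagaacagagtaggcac
Tnfrsf18, chr4:156026072-156026321: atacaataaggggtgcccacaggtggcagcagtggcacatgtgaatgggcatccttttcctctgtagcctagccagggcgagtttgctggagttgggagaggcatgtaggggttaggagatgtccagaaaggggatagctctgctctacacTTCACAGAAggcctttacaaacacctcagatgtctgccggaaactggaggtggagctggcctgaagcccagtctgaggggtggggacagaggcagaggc
Tnfrsf4, chr4:156013445-156013694: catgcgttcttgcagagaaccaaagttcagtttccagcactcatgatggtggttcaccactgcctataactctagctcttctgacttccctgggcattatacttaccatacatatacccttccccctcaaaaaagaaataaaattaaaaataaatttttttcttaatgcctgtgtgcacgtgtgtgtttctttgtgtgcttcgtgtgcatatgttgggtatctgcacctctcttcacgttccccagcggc
The Il2ra window held 2 overlapping kappaB matches that begin 201 and 200 bases before the start, on opposite strands. The Tnfrsf18 window held 1 GAS match 99 bases before the start, and the Tnfrsf4 window held no match. Among 32851 mouse promoter windows of this length, 45.8% held the kappaB letters, 7.02% GAS, 6.75% AP-1 and 17.8% forkhead. Such matches describe the sequence and locate no binding. RefSeq windows were matched for 6 of the 8 members, Ikzf2 and Icos being the others. Among windows not shown, that of Tnfrsf9 start site 2 held matches to all 4 motifs. Foxp3 start site 2 held GAS and forkhead matches, and the Ccr8 window held kappaB matches. Start site 1 of Foxp3 and of Tnfrsf9 held none.

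The count table held 31.8 to 54.0 M counts per tumour (median 41.2 M). Levels are CPM, the share of these counts scaled to a common library size with edgeR's TMM factors. Ccr8 was the scarcest member, at 0.0274 to 4.96 CPM. The markers of T cells were counted in every tumour: the summed level of 11 T cell genes ran from 63.0 to 299 CPM in allografts and from 9.19 to 371 CPM in primary tumours. The summed level of 5 skeletal muscle genes ran from 8.26 to 59800 CPM over the 48 tumours. Primary tumour 4 of the 20 Gy with anti-PD-1 group stood apart, with 46.8 CPM of Cd3e against a group median of 3.68 CPM, and the member estimates that it changed in sign or most in size are also given without it. Xist, which is expressed from the inactive X chromosome of females, was above 10 CPM in 1, 1, 3 and 3 of 4 allografts and in 5, 3, 2 and 3 of 8 primary tumours (in the order of treatments above), so sex was not balanced across groups. The labels do not say whether tumours of a group shared litters, so p-values measure the spread between these tumours.

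Per kilobase of exon, Tnfrsf9 had the highest mean level of the members in the unirradiated control allografts at 4.53 CPM per kb, followed by Tnfrsf18 at 3.06, Tnfrsf4 at 2.09, Icos at 1.81, Il2ra at 0.907, Ikzf2 at 0.621, Ccr8 at 0.415 and Foxp3 at 0.318. In the unirradiated control primary tumours the order of means was Tnfrsf9 (2.14 CPM per kb), Tnfrsf18 (1.74), Tnfrsf4 (1.66), Ikzf2 (0.508), Il2ra (0.506), Icos (0.487), Foxp3 (0.398) and Ccr8 (0.378). The first place of Tnfrsf9 there rested on tumour 4, at 9.88 CPM per kb. Without that tumour its mean was 1.03 CPM per kb, below Tnfrsf18 and Tnfrsf4 (1.38 each), and by group median, too, Tnfrsf9 (0.933) was below Tnfrsf4 (1.22) and Tnfrsf18 (1.21). The ranges of these 3 genes overlapped. The 4 costimulatory receptors thus led in the unirradiated control allografts, and Icos was level with Ikzf2 and Il2ra in the unirradiated control primary tumours. The plot of levels by tumour shows all 8 genes.

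**Figure D1:**
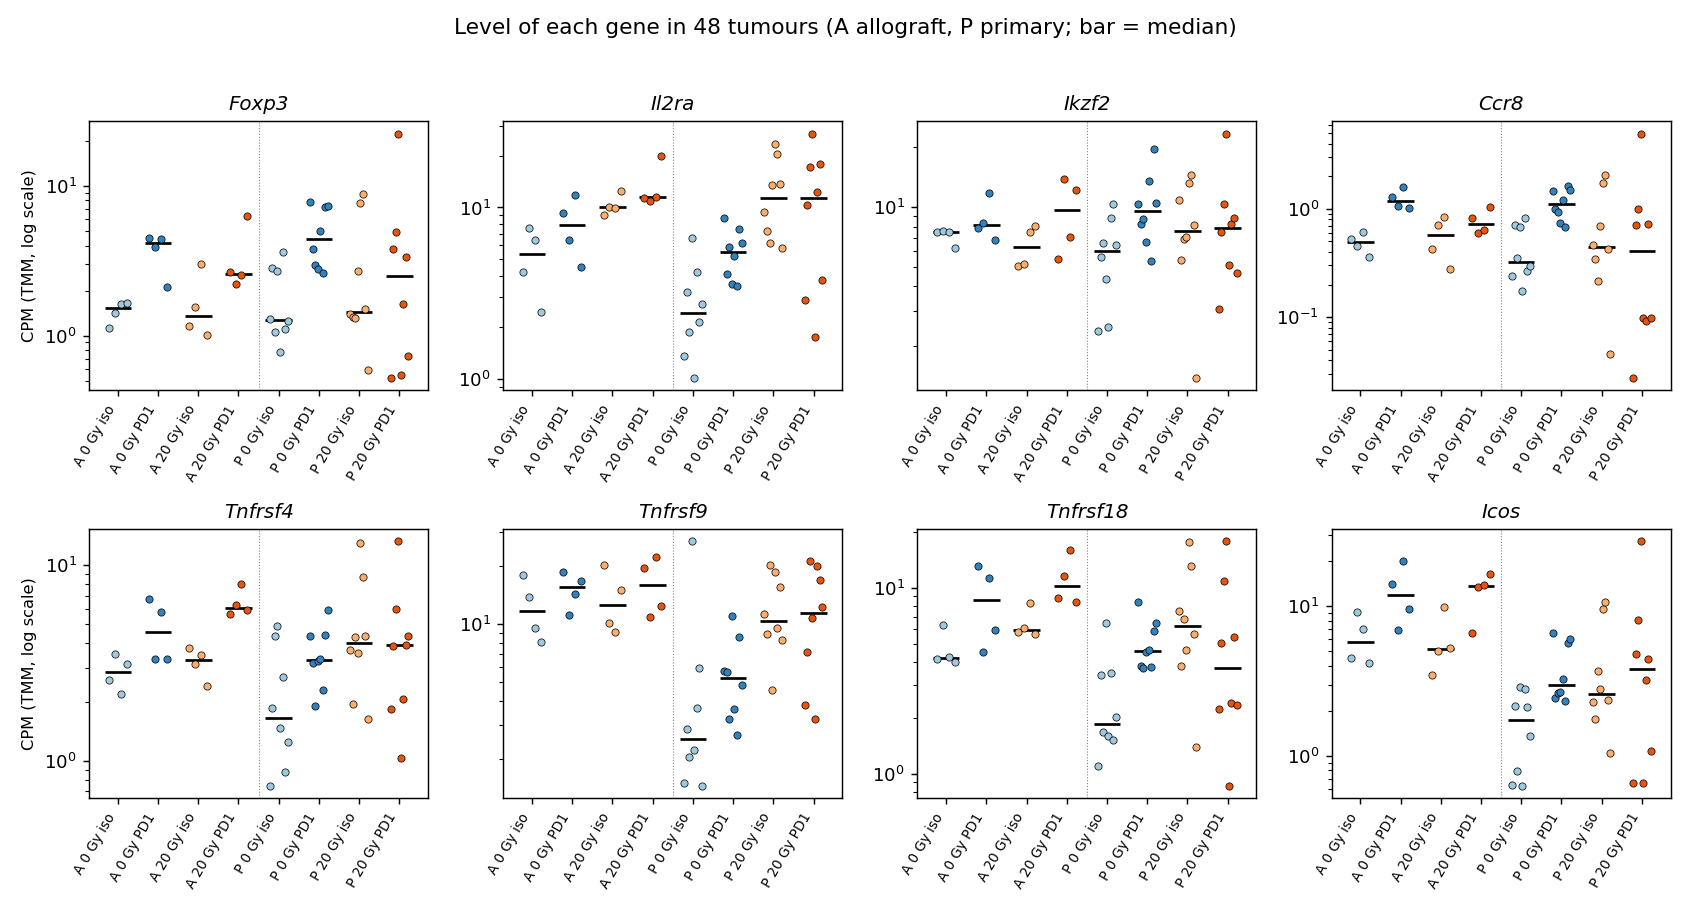
TMM-normalised level (CPM, log axis) of the 8 genes in each of 48 tumours; each point is 1 tumour, bars are group medians, A is allograft (4 per group) and P is primary (8 per group). Il2ra medians rise from 2.43 to 11.4 CPM with 20 Gy under isotype in primary tumours, and Foxp3 medians in the same groups are 1.27 and 1.45 CPM.

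Radiation without PD-1 blockade raised Il2ra and Tnfrsf18 in primary tumours. CD25 message was the clearest: Il2ra was 1.01, 2.43 and 6.65 CPM (lowest, median, highest of 8) at 0 Gy and 5.76, 11.4 and 23.6 CPM after 20 Gy. Of the unirradiated tumours only tumour 4 reached into the irradiated range. The log2 fold change was 2.12 ± 0.46 (SE; edgeR adjusted p = 0.00192). GITR message, Tnfrsf18, was 1.10, 1.85 and 6.49 CPM at 0 Gy and 1.38, 6.23 and 17.6 CPM after 20 Gy, with overlapping groups and a log2 fold change of 1.53 ± 0.49 (edgeR adjusted p = 0.0353). These were the 2 members called at an adjusted p below 0.05, where 14.5% of the 17770 genes tested were called, 7.85% as higher and 6.64% as lower.

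The other 6 members did not pass in that comparison, and all had positive estimates. OX40 message, Tnfrsf4, had a mean of 2.26 CPM at 0 Gy and 5.15 CPM after 20 Gy (log2 fold change 1.20 ± 0.47, edgeR adjusted p = 0.0813). Icos had medians of 1.74 and 2.59 CPM (1.38 ± 0.61, adjusted p = 0.127 by edgeR). Tnfrsf9 had medians of 2.54 and 10.4 CPM (1.07 ± 0.52, adjusted p = 0.167 by edgeR), but unirradiated tumour 4 stood at 26.9 CPM against 5.93 CPM for the next; without it the log2 fold change was 2.14 (edgeR adjusted p = 0.00075). The 3 genes most tied to regulatory T cells had smaller estimates: 0.81 ± 0.63 for Foxp3, 0.53 ± 0.39 for Ikzf2 and 0.76 ± 0.70 for Ccr8 on the log2 scale (edgeR adjusted p 0.407, 0.378 and 0.492). Over the 8 members the median log2 fold change was 1.13, against -0.02 over all genes tested.

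Il2ra passed in every alternative analysis of this comparison. Tnfrsf18 lost its call with the low-count filter off, with Xist or muscle content as a covariate (edgeR adjusted p 0.0543, 0.0744 and 0.0735) and without any 1 of 7 tumours, which were tumours 1, 3, 5, 7 and 8 at 0 Gy and tumours 5 and 6 at 20 Gy (0.0582 to 0.107). Leukocyte genes moved in the same comparison: Ptprc (CD45) rose by 1.09 ± 0.32 on the log2 scale (edgeR adjusted p = 0.0195), from 80.7 to 162 CPM in group median. Of 11 T cell markers 0 were called; their summed level had a median of 31.9 CPM (22.8 to 99.1) at 0 Gy and 59.2 CPM (18.6 to 178) after 20 Gy. Of 5 macrophage markers Cd68 and C1qa were called higher, of 5 neutrophil markers Csf3r, of 5 B cell markers Pax5, and of 5 markers of mature dendritic cells Ccr7 and Ccl22, with Fscn1 called lower. The summed macrophage level ran from 1070 to 2010 CPM at 0 Gy and from 1240 to 2280 CPM after 20 Gy, the neutrophil level from 13.6 to 79.8 and from 31.5 to 771, the B cell level from 3.10 to 10.7 and from 6.47 to 19.3, and the mature dendritic cell level from 368 to 714 and from 224 to 424. Fscn1, which is not exclusive to those cells, made up most of that last sum (mean 454 and 283 CPM), so the sum was lower after 20 Gy while the median log2 fold change of the 5 markers was 1.26. No marker of these lists was at 0 in any tumour of either group, and their part in the members' changes was not tested.

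Radiation under anti-PD-1 gave no call among the 8 members in primary tumours, where 7.92% of genes were called. The groups overlapped for all 8, while 0.293% of genes were without overlap upwards and 0.124% downwards. Il2ra was 3.49, 5.53 and 8.64 CPM (lowest, median, highest) at 0 Gy with anti-PD-1 and 1.76, 11.3 and 27.0 CPM after 20 Gy with anti-PD-1, a log2 fold change of 1.08 ± 0.44 (edgeR adjusted p = 0.133). The irradiated group split widely, with 3 of its 8 tumours below 4 CPM (1.76, 2.90 and 3.76) and the other 5 above 10 CPM. Tnfrsf9 had medians of 5.23 and 11.4 CPM (1.09 ± 0.52, adjusted p = 0.199 by edgeR). Foxp3 had medians of 4.39 and 2.49 CPM (-0.05 ± 0.62, edgeR adjusted p = 0.977), and its irradiated tumours spanned 0.520 to 22.4 CPM. Without irradiated tumour 4, the one at 22.4 CPM, Foxp3 stood at -1.15 ± 0.55 (edgeR adjusted p = 0.259) and Ccr8 at -1.53 ± 0.62 (from -0.24), while Icos turned from 0.68 to -0.27, Tnfrsf4 from 0.36 to -0.10 and Tnfrsf18 from 0.21 to -0.29, none of them called. The test of whether the dose effect differed between antibodies passed for 0 of 8 members in either tumour kind (edgeR, 0% of all genes called), the smallest p among members in primary tumours being 0.0639 for Tnfrsf18, at -1.32 ± 0.69. Without tumour 4 of the 20 Gy with anti-PD-1 group that interaction was -1.82 for Tnfrsf18 and -1.97 for Foxp3 (from -0.86), again not called.

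In allografts no member was called after 20 Gy alone, where 5.14% of 17746 genes were called (4.4% as higher, 0.744% as lower). The animal identifiers in the titles begin with a digit whose meaning the labels do not state. It was 5 in all 4 isotype allografts at 0 Gy and in 1 of 4 after 20 Gy, and with it as a covariate the genes called fell from 912 to 196 and the members called stayed at 0. The fit of all 48 tumours called 372 of 19327 genes and again 0 members. Il2ra came closest: the isotype allografts held 4.2, 7.58, 6.48 and 2.44 CPM at 0 Gy and 8.99, 10.1, 9.92 and 12.4 CPM after 20 Gy. All 4 irradiated tumours were above all 4 unirradiated ones, a pattern that 9.59% of all genes showed in that direction and 4.67% in the other, and the log2 fold change was 1.03 ± 0.35 (edgeR adjusted p = 0.117). Foxp3 was 1.12, 1.42, 1.62 and 1.66 CPM at 0 Gy and 1.17, 1.56, 3.01 and 1.01 CPM after 20 Gy, so the groups overlapped (0.24 ± 0.41). Estimates for the other 6 members lay between -0.13 and 0.49. Under anti-PD-1 the dose again gave no call among members (3.96% of genes called, 703 in number, but 1 in the fit of only the 2 groups and fewer also in that of all 48 tumours, with 0 members in either), nor did any member separate the groups, as 5.83% of genes did upwards, with Il2ra at 0.77 ± 0.35 (adjusted p = 0.239 by edgeR) and Ccr8 lowest at -0.65 ± 0.34. Whether the dose effect differed between tumour kinds was tested directly, and 0 of 8 members passed (0.00517% of 19327 genes called under isotype and 0% under anti-PD-1); under isotype all 8 estimates of the difference were positive, from 0.53 for Ccr8 to 1.42 for Icos, with SE of 0.60 to 1.05.

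**Figure D2:**
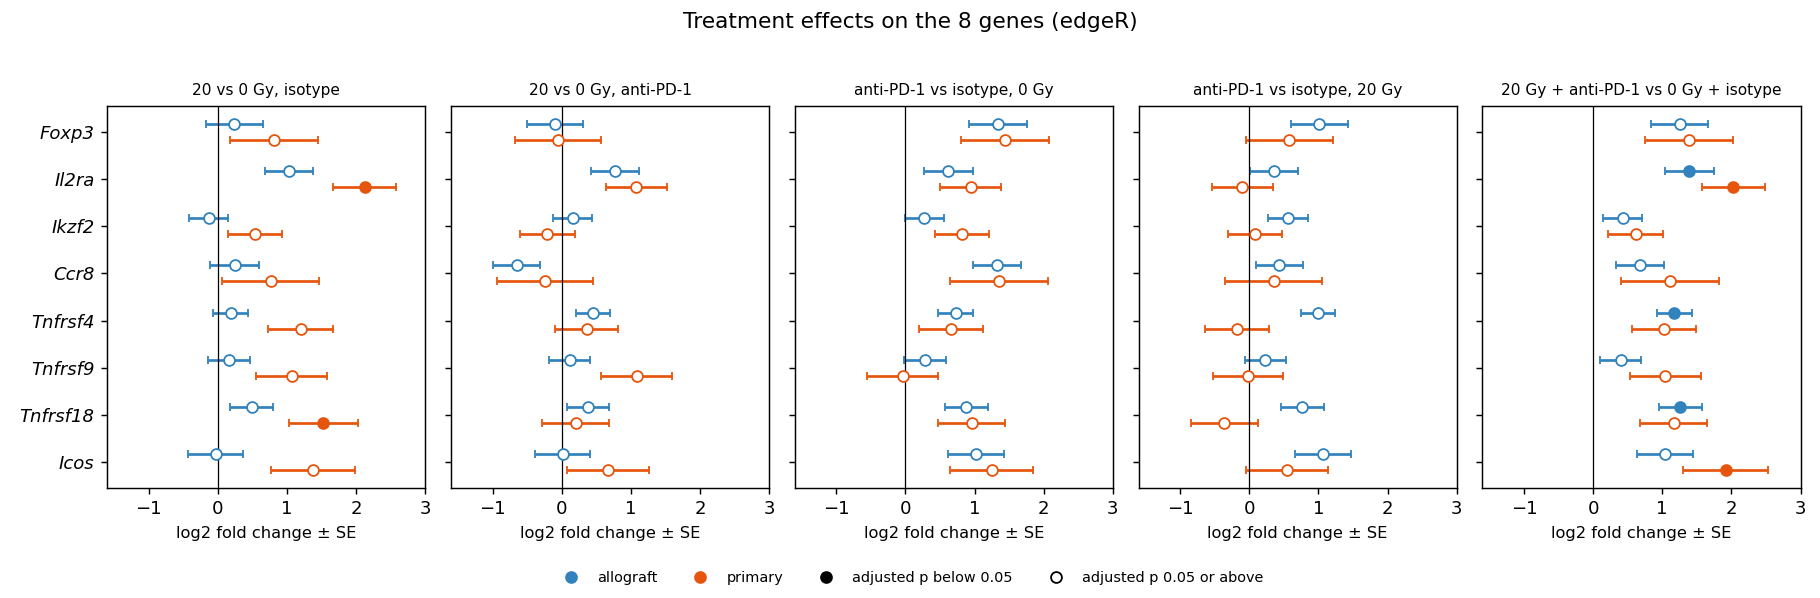
Log2 fold change ± SE (edgeR) of each member in 5 treatment comparisons, blue for allografts and orange for primary tumours; filled points have an adjusted p below 0.05. Filled points are Il2ra and Tnfrsf18 after 20 Gy with isotype in primary tumours, Il2ra, Tnfrsf4 and Tnfrsf18 after the combination in allografts, and Il2ra and Icos after the combination in primary tumours.

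PD-1 blockade without radiation gave higher estimates for most members in both tumour kinds, none of which passed adjustment over all genes. Foxp3 was 4.51, 3.91, 4.42 and 2.10 CPM in anti-PD-1 allografts against 1.12, 1.42, 1.62 and 1.66 CPM with isotype, so the groups did not overlap. The log2 fold change was 1.34 ± 0.42 (edgeR unadjusted p = 0.00561, adjusted p = 0.9999). Ccr8 did not overlap either, at 1.28, 1.07, 1.59 and 1.01 CPM against 0.525, 0.458, 0.608 and 0.359 CPM (1.33 ± 0.34, unadjusted p = 0.00159 by edgeR). In this comparison 0.321% of all genes had every treated tumour above every control and 0% were called. All 8 members had positive estimates in allografts (median 0.80), and 5 had an unadjusted p below 0.05 by edgeR, against 1.68% of all genes; DESeq2 called 0 members and 0 genes.

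In primary tumours the same comparison gave 7 of 8 positive estimates (median 0.95), with an unadjusted p below 0.05 for 4 members (edgeR) against 2.32% of all genes, and 0% of genes called (DESeq2 called 3 genes, 0 of them members). All 8 overlapped between groups, and 0.00563% of genes did not. Foxp3 was 0.777, 1.27 and 3.59 CPM (lowest, median, highest of 8) with isotype and 2.60, 4.39 and 7.81 CPM with anti-PD-1. The ranges overlapped between 2.60 and 3.59 CPM. Its log2 fold change was 1.44 ± 0.64 (unadjusted p = 0.0307 by edgeR). Ccr8 had medians of 0.324 and 1.11 CPM (1.36 ± 0.71), Icos 1.74 and 2.97 CPM (1.25 ± 0.60), Il2ra 2.43 and 5.53 CPM (0.95 ± 0.44) and Ikzf2 6.06 and 9.55 CPM (0.82 ± 0.39). Tnfrsf9 was the member without a positive estimate (-0.04 ± 0.51), and it stood at 1.02 ± 0.41 without control tumour 4. Of 11 T cell markers 0 were called, 7 of them had an unadjusted p below 0.05 in allografts and 1 in primary tumours (edgeR), and their median log2 fold change was 0.89 in allografts and 1.09 in primary tumours, against medians near 0 (-0.005 and -0.031) over all genes. Cd3e had estimates of 0.94 ± 0.43 and 1.26 ± 0.69. The difference of the anti-PD-1 effect between kinds passed for 0 of 8 members (edgeR, 0% of genes).

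After 20 Gy, anti-PD-1 against isotype again gave no call among members in either kind, nor for any gene (0%). In allografts Tnfrsf4 was 5.61, 6.23, 8.03 and 5.93 CPM with anti-PD-1 against 3.76, 3.11, 3.48 and 2.41 CPM, without overlap (0.99 ± 0.25, unadjusted p = 0.00124, adjusted p = 0.682 by edgeR). Tnfrsf18 did not overlap either (0.77 ± 0.31). Of all genes, 0.902% were in that position, and 0.586% in the opposite one. Icos (1.07 ± 0.40) and Foxp3 (1.01 ± 0.41) had larger estimates, with overlap. All 8 estimates were positive (median 0.66), and 4 members had an unadjusted p below 0.05 by edgeR, against 3.84% of all genes. In primary tumours the member estimates lay between -0.36 for Tnfrsf18 and 0.58 for Foxp3, with SE of 0.39 to 0.70, and all 8 overlapped (0.00563% of genes did not upwards and 0.0113% downwards). Without treated tumour 4 the estimate of Foxp3 turned to -0.52, that of Icos from 0.55 to -0.40, that of Ccr8 from 0.35 to -0.93 and that of Ikzf2 from 0.08 to -0.30, none of them called.

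The combination of 20 Gy and anti-PD-1, set against 0 Gy with isotype, raised 3 members in allografts and 2 in primary tumours. In allografts OX40 message had the smallest adjusted p: Tnfrsf4 was 2.58, 3.51, 2.21 and 3.12 CPM in controls and 5.61, 6.23, 8.03 and 5.93 CPM after the combination. The groups did not overlap, and the log2 fold change was 1.18 ± 0.25 (edgeR adjusted p = 0.00854). Tnfrsf18 rose from 4.13, 6.28, 4.26 and 3.99 CPM to 8.78, 11.6, 15.9 and 8.38 CPM (1.26 ± 0.31, adjusted p = 0.0184 by edgeR). Il2ra rose from 4.2, 7.58, 6.48 and 2.44 CPM to 11.4, 10.9, 11.5 and 20.0 CPM (1.39 ± 0.36, adjusted p = 0.0218 by edgeR). In this comparison 9.66% of genes were called, 7.43% as higher and 2.23% as lower. Upward separation without overlap, seen for 4 members, was seen for 8.94% of genes, and downward separation for 5.07%. Foxp3 also did not overlap, at 2.65, 2.20, 2.53 and 6.32 CPM against 1.12 to 1.66 CPM, but did not pass (1.25 ± 0.42, edgeR adjusted p = 0.0726; DESeq2 0.0231).

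Fitting all 48 tumours together, with the wider spread of the primary tumours, ended all 3 calls in allografts (edgeR adjusted p 0.185 for Il2ra and 0.283 for Tnfrsf4 and Tnfrsf18). Il2ra also missed the threshold with Xist as a covariate, with only the 2 groups in the fit, or without tumours 1 or 4 of the controls or tumour 4 of the treated group (edgeR adjusted p 0.0517 to 0.0783), and Tnfrsf18 without tumours 1 or 4 of the controls or tumour 3 of the treated group (0.0631 to 0.0689). Ptprc rose by 1.87 ± 0.31 in the same comparison (edgeR adjusted p = 0.00225), 4 of 5 natural killer cell markers and 3 of 5 macrophage markers were called higher, and 0 of 11 T cell markers were called. Of 5 markers each of mature dendritic cells, neutrophils and endothelium, 1 was called higher. The natural killer cell sum was 4.42 to 6.76 CPM in controls and 13.5 to 24.2 CPM after the combination, the macrophage sum 887 to 1410 and 1690 to 3100 CPM, and the T cell sum at most 140 and 275 CPM. None of these markers was at 0 in any tumour, and their part in the result was not tested.

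In primary tumours the combination raised Il2ra to 1.76, 11.3 and 27.0 CPM (lowest, median, highest) from 1.01, 2.43 and 6.65 CPM, with overlap (2.03 ± 0.45, edgeR adjusted p = 0.00321), and this call held in every alternative. Icos rose to 0.657, 3.82 and 27.2 CPM from 0.633, 1.74 and 2.87 CPM (1.92 ± 0.61, edgeR adjusted p = 0.0345). Here 13.8% of genes were called, 8.78% as higher. The Icos call rested on the tumour with the most T cell message, treated tumour 4 at 27.2 CPM: without it the log2 fold change was 0.98 (edgeR adjusted p = 0.259). Foxp3, which did not pass (1.39 ± 0.64, edgeR adjusted p = 0.14), stood at 0.29 ± 0.54 without it, and Ccr8 turned from 1.11 to -0.17. It was also lost with Xist, muscle content or only 2 groups in the fit (adjusted p 0.107, 0.156 and 0.0950 by edgeR) and without tumours 1, 3, 5 or 8 of the controls or treated tumour 3 (0.0549 to 0.0650). Tnfrsf9 was at 1.05 ± 0.52 (adjusted p = 0.173 by edgeR), and at 2.11 (edgeR adjusted p = 0.00103) without control tumour 4. Ptprc rose by 1.08 ± 0.32 and 0 of 11 T cell markers were called, their summed level being 9.19 to 371 CPM after the combination and 22.8 to 99.1 CPM in controls. Of 5 neutrophil markers 3 were called higher (Csf3r, Retnlg and Cxcr2), their sum being 37.7 to 754 CPM after the combination and 13.6 to 79.8 CPM in controls, with no marker at 0. Of 5 macrophage and 5 mature dendritic cell markers, 1 each was called higher. Of 4 tested markers of type 2 innate lymphoid cells 1 was called higher. The sum of that list of 5 was 8.29 to 93.4 CPM after the combination and 13.0 to 27.2 CPM in controls. The part of these cells was not tested.

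Between tumour kinds, Icos was lower in primary tumours at 0 Gy, and no difference in Foxp3, Ikzf2 or Ccr8 passed the test. With isotype at 0 Gy, Icos was 4.49, 9.09, 7.07 and 4.15 CPM in allografts and 0.633, 1.74 and 2.87 CPM (lowest, median, highest of 8) in primary tumours. No primary tumour reached the lowest allograft, and the log2 difference, primary minus allograft, was -1.89 ± 0.44 (edgeR adjusted p = 0.0183). It was the only member called of 8, where 10% of genes were called and 3.99% as lower, and 2.89% of genes had all primary tumours below all allografts. With anti-PD-1 at 0 Gy, Icos (14.1, 6.92, 20.1 and 9.61 CPM against 2.31, 2.97 and 6.62 CPM; -1.65 ± 0.36, edgeR adjusted p = 0.0151) and Tnfrsf9 (18.7, 11.1, 14.3 and 16.7 CPM against 2.65, 5.23 and 11.1 CPM; -1.39 ± 0.34, edgeR adjusted p = 0.0241) were both called, with 8.94% of genes called and 3.99% as lower. After 20 Gy no member was called with isotype (4.76% of genes called) or with anti-PD-1 (0.00566%). The last share is 1 gene of 17674 and rests on the method, since DESeq2 called 1005 of the 17674 and the edgeR fit of all 48 tumours 1309 of 19327, with 0 members in either.

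Foxp3 differed between the kinds by 0.32 ± 0.43 with isotype and 0.43 ± 0.37 with anti-PD-1 at 0 Gy, and by 0.94 ± 0.71 and 0.48 ± 0.95 after 20 Gy, none of them called (edgeR adjusted p 0.499 to 0.827). After 20 Gy with anti-PD-1 the Foxp3 difference turned to -0.60 and that of Ccr8 from 0.32 to -0.95 without primary tumour 4. An interval of 2 SE on either side of these values does not exclude a difference of 1 on the log2 scale. With isotype at 0 Gy, 6 of 11 T cell markers were called lower, including Cd3e (-1.78 ± 0.46) and Cd8a (-2.19 ± 0.57), and 5 of 11 with anti-PD-1; after 20 Gy 0 of 11 were called with either antibody (edgeR; 2 and 0 with an unadjusted p below 0.05). Cd4, the lineage gene of regulatory T cells, was not among those called (0.24 ± 0.35 with isotype and -0.34 ± 0.45 with anti-PD-1 at 0 Gy). Their summed level was 63.0 to 140 CPM in control allografts and 22.8 to 99.1 CPM in control primary tumours, none at 0. Icos lost its call without control allograft 2 (-1.65, edgeR adjusted p = 0.0771), while Tnfrsf9 gained one without primary tumour 4 (-2.12, edgeR adjusted p = 0.00562), as did Tnfrsf18 (-1.14, edgeR adjusted p = 0.0441). Under anti-PD-1 both calls were lost without allografts 1 or 3, and that of Tnfrsf9 without allograft 4 (edgeR adjusted p 0.0522 to 0.0860), and in the fit of all 48 tumours (0.0914 for Tnfrsf9 and 0.0861 for Icos). The first digit of the animal identifiers was 5 in all 4 control allografts and in 0 of 8 control primary tumours, so at baseline it and the tumour kind cannot be told apart. Under anti-PD-1, where both digits occur, adding it to the fit gave -1.10 for Icos (edgeR adjusted p = 0.297) and -1.01 for Tnfrsf9 (0.287).

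Because T cell content varied, each member was also read relative to the genes of the CD3 complex, as counts per 100 summed counts of Cd3d, Cd3e and Cd3g. For Foxp3 no treatment difference was detected within a kind on this scale: group medians were 3.94, 5.29, 6.42 and 6.09 in allografts and 24.7, 25.1, 19.4 and 25.7 in primary tumours (0 Gy isotype, 0 Gy anti-PD-1, 20 Gy isotype, 20 Gy anti-PD-1). The differences of mean log2 ratio for Foxp3 lay between -0.21 and 0.57 in the 10 treatment comparisons, with exact permutation p of 0.232 or more. This depended on the reference. With Ptprc (CD45) in place of the CD3 genes, Foxp3 was called lower after 20 Gy in allografts, by -1.53 with isotype and -1.75 with anti-PD-1 (exact permutation, adjusted p 0.0381 and 0.0411), where 74.7% and 69.4% of all genes were. In primary tumours it differed with Ptprc by -1.66 after 20 Gy under anti-PD-1 (exact permutation p = 0.00264, adjusted 0.188) and by 1.30 after anti-PD-1 at 0 Gy (exact permutation p = 0.00171, adjusted 0.793). The medians of Il2ra were 15.3, 12.4, 41.8 and 27.1 in allografts and 32.9, 26.5 and 95.0 in the first 3 primary groups, and it ran from 25.3 to 502 in primary tumours after the combination. In primary tumours with isotype the log2 ratio of Il2ra rose by 1.54 after 20 Gy (exact permutation p = 0.000932, adjusted over all genes 0.169), and the median gene moved by -0.64. Tnfrsf18 went from a median of 29.2 (22.2 to 41.8) to 50.3 (38.4 to 73.5), a log2 difference of 0.78 (exact permutation p = 0.000311, adjusted 0.0891). Relative to CD3 genes, 2.49% of all genes had an unadjusted p below 0.05 in that direction in this comparison, and 0% passed adjustment. With Ptprc as the reference the difference for Tnfrsf18 was 0.42 (exact permutation p = 0.219), and after adjustment 2.19% of all genes were higher and 59.9% lower.

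Of the 80 differences within kinds, 41 had the opposite sign with Ptprc as the reference. Among the 48 that set irradiated against unirradiated tumours it was 26, all positive with CD3 and negative with Ptprc. The change of reference shifts all 8 members of a comparison by the same amount, so these are not separate reversals. Of the 80 tests with CD3, 10 had an unadjusted exact permutation p below 0.05, all higher after radiation or the combination, and 0 passed adjustment over all genes. In primary tumours under anti-PD-1, radiation gave 5 of them, among them Il2ra with a log2 difference of 1.86 (exact permutation p = 0.00186), but 13.6% of all genes were past the same threshold and the median gene had moved by 1.20. The summed CD3 counts there were 39 to 3171 after 20 Gy and 401 to 2065 at 0 Gy. With Ptprc as the reference Il2ra differed there by 0.02 (exact permutation p = 0.956) and Tnfrsf9 by 0.33 (p = 0.443, exact permutation; 2.16 with CD3), and the other 3 turned negative. Under the combination Il2ra differed by 1.64 (p = 0.00559, exact permutation) and Icos by 1.004 (p = 0.0438, exact permutation), where 2.07% of genes were past it; with Ptprc as the reference Icos differed by 0.28 (p = 0.574, exact permutation). After anti-PD-1 at 0 Gy in primary tumours 68.6% of all genes were lower relative to CD3 message after adjustment (median gene -1.34), and 0 of 8 members were, with differences of -0.72 for Tnfrsf9 to 0.18 for Foxp3. In allografts Il2ra rose by 1.30 after 20 Gy with isotype, at p = 0.0286, the smallest that an exact permutation test of 4 against 4 can give, and 4.89% of genes did as much. With Ptprc as the reference, that allograft difference turned to -0.51, with an exact permutation p of 0.143. After adjustment over all genes, 15 of the 80 tests passed with Ptprc. All but 1 were lower in irradiated allografts (5 members with isotype, 7 with anti-PD-1 and 2 after the combination), where 74.7%, 69.4% and 76.8% of all genes were called lower. Each of these allograft passes was at the smallest exact permutation p, 0.0286, which passes adjustment only where a large share of all genes reaches it. With CD3, Il2ra at that same p had an adjusted p of 0.549 (exact permutation). The allograft passes therefore cannot be read as results of the members alone. The exception, Il2ra after 20 Gy with isotype in primary tumours, was higher, where 2.19% of genes were.

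Relative to CD3 genes 6 of the 8 members passed adjustment between the kinds at 0 Gy, and 0 of 8 after 20 Gy with either antibody (smallest adjusted exact permutation p 0.131 with isotype and 0.0951 with anti-PD-1). These comparisons were added after the data were seen. With Ptprc as the reference this order of calls was turned round, with 0 of 8 called at 0 Gy and members called after 20 Gy. The adjusted p depends on how many other genes pass. With CD3 after 20 Gy with isotype, Foxp3, Ikzf2, Tnfrsf4 and Tnfrsf18 also did not overlap, at an unadjusted exact permutation p of 0.00404. There 22.6% of all genes were higher at an unadjusted p below 0.05, against 82.4% at 0 Gy. Foxp3 differed by 1.74 there and by 2.19 with anti-PD-1 after 20 Gy. Foxp3 was 3.13 to 8.75 per 100 CD3 counts in control allografts and 13.0 to 31.6 in control primary tumours, without overlap, a log2 difference of 2.21 (exact permutation p = 0.00404, the smallest for 8 against 4; adjusted over all genes 0.0128). Il2ra, Ikzf2, Ccr8, Tnfrsf4 and Tnfrsf18 also passed, at log2 differences of 1.06 to 1.77, and Tnfrsf9 (0.28) and Icos (0.03) did not. The same 6 passed under anti-PD-1 at 0 Gy. But 80.7% and 72.9% of all genes passed as higher in these 2 comparisons and the median gene differed by 2.06 and 1.56, so the members' share is near the background. With Ptprc as the reference all 12 of these calls were lost, Foxp3 standing at log2 differences of 0.73 and 1.12. After 20 Gy, Ptprc gave 5 members as higher in primary tumours with isotype (Foxp3, Il2ra, Ikzf2, Tnfrsf4 and Tnfrsf18, by 1.15 to 1.70) and 3 with anti-PD-1 (Il2ra, Ikzf2 and Tnfrsf4, by 0.85 to 1.46), where 60.5% and 65.3% of all genes were higher too. Beside this, Cd3e itself was called lower in primary tumours at 0 Gy (above). After 20 Gy it was not called, at -1.09 with isotype and -0.96 with anti-PD-1 (edgeR adjusted p 0.305 and 0.659). With isotype at 0 Gy, 2.5% of genes had a smaller difference than Icos, 3.4% a smaller one than Tnfrsf9 and 64.3% a smaller one than Foxp3.

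**Figure D3:**
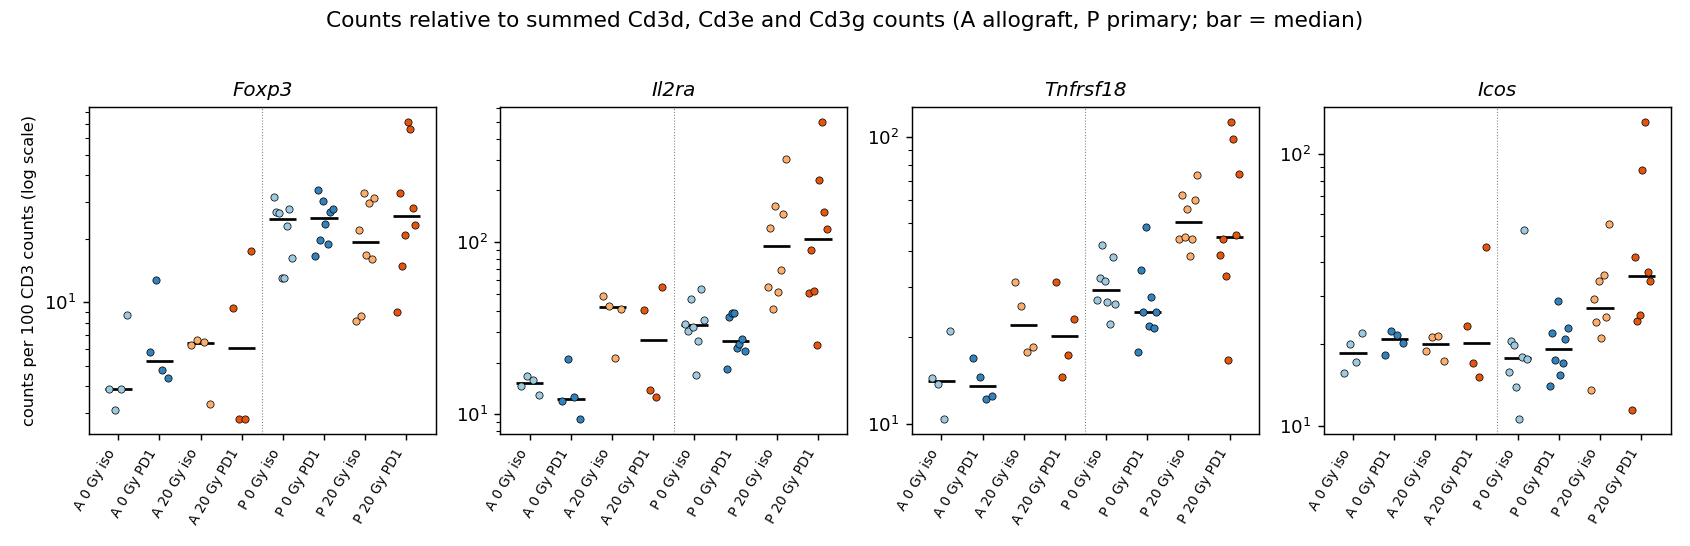
Counts of Foxp3, Il2ra, Tnfrsf18 and Icos per 100 summed counts of Cd3d, Cd3e and Cd3g (log axis) in each of 48 tumours; points are tumours, bars are group medians, A is allograft and P is primary. Foxp3 medians are 3.94 to 6.42 in allografts and 19.4 to 25.7 in primary tumours; Il2ra medians rise from 32.9 to 95.0 with 20 Gy under isotype in primary tumours.

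Most ligands of these receptors rose after radiation with isotype in primary tumours. Under anti-PD-1 3 of 8 genes of the list were called higher, where 6.06% of all genes were. The test of the difference between antibodies called 0 of 8 (edgeR, also 0 with an unadjusted p below 0.05) and 0% of all genes. Of 9 genes listed as ligands or interleukin-2 receptor partners, 8 were tested (Il2 was too low), and 7 were called higher and 0 lower after 20 Gy with isotype in primary tumours, with a median log2 fold change of 1.98. Of all genes, 7.85% were called higher and 6.64% lower there. Tnfsf4, which encodes the OX40 ligand, was 0.0288, 0.220 and 1.02 CPM (lowest, median, highest) at 0 Gy and 1.16, 2.72 and 5.22 CPM after 20 Gy. The groups did not overlap, as for 1.5% of all genes in that direction, and the log2 fold change was 3.08 ± 0.51 (edgeR adjusted p = 0.000145). Ccl8, a chemokine that binds CCR8 in mice, rose from a median of 53.2 to 358 CPM (2.47 ± 0.50, edgeR adjusted p = 0.00121), and Tnfsf18, the GITR ligand, rose by 2.49 ± 0.60 (edgeR adjusted p = 0.00541) from a mean of 0.384 CPM. Il2rg, the common gamma chain of interleukin receptors, rose by 1.49 ± 0.32 (edgeR adjusted p = 0.00174). Tnfsf9 (the CD137 ligand), Icosl (the ICOS ligand) and Ccl1 (a CCR8 ligand) made up the 7, and Il2rb, the beta chain, did not pass (1.04 ± 0.49, adjusted p = 0.158 by edgeR). Ptprc and some markers of macrophages, neutrophils, B cells and mature dendritic cells were called higher in the same comparison (above). Their part in the ligand changes was not tested.

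In allografts 3 of the 8 were called higher after 20 Gy with isotype, where 4.4% of all genes were. They were Icosl (1.18 ± 0.21), Tnfsf4 (1.70 ± 0.41, with no overlap between groups, as for 9.59% of genes) and Il2rg (1.33 ± 0.36). Ccl8 (0.08 ± 0.67) and Tnfsf18 (-0.20 ± 0.49) gave no detectable difference there, and the test of the difference between kinds did not pass for either (edgeR adjusted p = 0.466 for both, unadjusted p 0.00824 and 0.00579). Under anti-PD-1, radiation called Tnfsf4 and Icosl in allografts and Tnfsf4 (3.42 ± 0.51), Il2rg and Tnfsf18 in primary tumours, where 3.13% and 6.06% of all genes were called higher. The combination called 3 of 8 in allografts and 4 of 8 in primary tumours, all higher, where 7.43% and 8.78% of all genes were. Anti-PD-1 alone or after 20 Gy called 0 of 8 in either kind, and 0% of all genes. The plot of ligand effects shows Tnfsf4 as the gene that passed in all 4 dose comparisons. Its allograft calls were not stable: under isotype Tnfsf4 missed the threshold with the identifier digit or Xist as a covariate, in the fit of all 48 tumours and in that of 2 groups (edgeR adjusted p 0.0829, 0.0631, 0.187 and 0.0635), and under anti-PD-1 in the last 2 fits (0.146 and 0.0743).

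**Figure D4:**
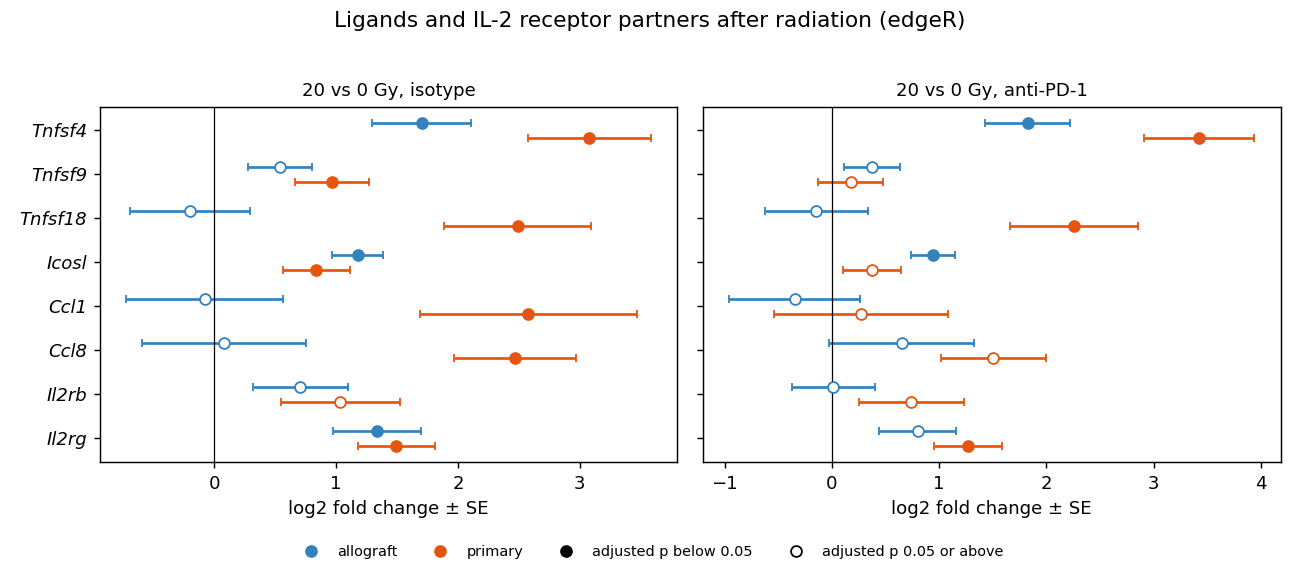
Log2 fold change ± SE (edgeR) after 20 Gy for ligands of the member receptors and partner chains of the interleukin-2 receptor, left with isotype and right with anti-PD-1, blue for allografts and orange for primary tumours; filled points have an adjusted p below 0.05. Tnfsf4 is filled in all 4 dose comparisons, from 1.70 to 3.42, and Tnfsf18 in both primary comparisons and neither allograft one.

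Other genes that mark regulatory T cells went both ways in primary tumours after 20 Gy with isotype: of 16 listed, 4 were called higher and 3 lower (median log2 fold change 0.47). Of all genes, 7.85% were called higher and 6.64% lower in that comparison. The transcription factor Batf (1.52 ± 0.39), the cytokine Il10 (1.81 ± 0.49), the interleukin-35 subunit Ebi3 (1.25 ± 0.34) and the inhibitory receptor Ctla4 (1.78 ± 0.61) rose. The ectonucleotidase Entpd1 (-1.03 ± 0.30), the receptor Gpr83 (-2.59 ± 0.75) and the semaphorin receptor Nrp1 (-0.68 ± 0.22) fell. Most genes of this list, among them Il10, Ebi3, Batf, Entpd1 and Nrp1, are also expressed by cells other than T cells, and Ptprc and 2 macrophage markers rose in the same comparison; their part was not tested. In allografts the same comparison called Ebi3 alone (1.75 ± 0.35), where 5.14% of all genes were called. The combination called 4 of 16 higher and 0 lower in each kind, Ebi3, Il10 and Batf in both, Entpd1 in allografts and the growth factor Areg in primary tumours. Of all genes it called 7.43% higher in allografts and 8.78% higher in primary tumours.

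Of 9 other costimulatory receptors, 8 were tested in primary tumours, and the tumour necrosis factor receptor Tnfrsf1b (0.94 ± 0.23) and Tnfrsf14 (1.28 ± 0.33) were called higher after 20 Gy with isotype. Of all genes, 7.85% were called higher there and 6.64% lower. The T cell receptors of that list, such as Cd27 and Cd28, were not called. In allografts Tnfrsf1b was called (0.97 ± 0.24), and the combination called it with Tnfrsf14 and Cd40lg, where 4.4% and 7.43% of all genes were called higher. Of 12 genes of signalling downstream, 5 were called higher and 0 lower after 20 Gy with isotype in primary tumours, against the same 7.85% and 6.64% of all genes. These were Birc3 (0.67 ± 0.15) and Relb (0.56 ± 0.13), which act in NF-kappaB signalling, Traf1 (0.83 ± 0.26), an adaptor of the receptor family, and Jak3 (0.75 ± 0.24) and Cish (1.28 ± 0.34), the kinase of the gamma chain and an inhibitor induced by STAT5. In allografts 2 were called higher, Traf1 (1.13 ± 0.21) and Birc3 (0.69 ± 0.16), where 4.4% of all genes were. Anti-PD-1 against isotype called none of the 16, 9 or 12 genes in either kind at either dose (edgeR, 0% of all genes). Over the 4 lists of ligands, regulatory T cell genes, costimulatory receptors and signalling, 7 genes were called after 20 Gy with isotype in allografts, and with the identifier digit as a covariate or in the fit of all 48 tumours Ebi3 alone kept its call (edgeR adjusted p 0.0347 and 0.0324). Without control tumours 2 or 4 of that comparison 2 of the 7 passed, Icosl and Traf1. Of 5 called after 20 Gy with anti-PD-1 in allografts, all 5 passed with the digit, and 0 in the fit of all 48, in that of 2 groups or without irradiated tumour 3. Of 21 called after 20 Gy with isotype in primary tumours, 20 passed with the digit, 21 in the fit of all 48 and 14 to 21 with 1 tumour left out. No call of these changed sign.

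Across the 48 tumours, after removing group means, Foxp3, Ccr8, Icos and Il2ra varied together, and also with other T cell genes. Pearson's r of log2 CPM was 0.945 between Foxp3 and Ccr8, 0.913 between Foxp3 and Icos and 0.833 between Foxp3 and Il2ra. Without primary tumour 4 of the 20 Gy with anti-PD-1 group these 3 values were 0.923, 0.884 and 0.816. The tumours share depth and T cell content in these values, which are given as a description: r with Cd3e was 0.851 for Foxp3, 0.840 for Ccr8, 0.825 for Il2ra, 0.893 for Icos and 0.923 for Tnfrsf18. Ikzf2 was looser, with r of 0.712 to Foxp3, 0.739 to Ccr8, 0.671 to Il2ra and 0.663 to Cd3e. Tnfrsf9 was the loosest, with r of 0.244 to 0.508 to the other 7 members and 0.333 to Cd3e. Among 14399 genes other than the 8 members, the 3 nearest to Foxp3 were Izumo1r (0.909), which encodes folate receptor 4, Cd5 (0.908) and Cd6 (0.899). Of these non-member genes the same 3 were nearest to Ccr8 (0.904, 0.916 and 0.890). Those nearest to Il2ra were Il2rb (0.914), Sh2d2a (0.884) and Sidt1 (0.883), and those nearest to Icos were Ctla4 (0.946), Zap70 (0.921) and Gimap3 (0.918). Nearest to Tnfrsf18 were Cd2 (0.956), Ptprcap (0.951) and Cd27 (0.947), to Tnfrsf4 Sla2 (0.864), Pkp3 (0.860) and Rnase6 (0.845), to Ikzf2 Als2cl (0.790), Nbeal2 (0.780) and Tmc8 (0.779), and to Tnfrsf9 Zbtb32 (0.722), Klrg1 (0.719) and Gm19684 (0.707).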

How the data were processed

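Messenger RNA of 48 tumours was read on a poly(A)-selected, strand-marking kit, with extracts of an RNA integrity number above 7, per the labels. The authors deposited 1 table of whole-number read counts per Ensembl gene; per the submitters' processing notes the tools include Trimmomatic 0.36, STAR and HTSeq with the build mm10. The annotation and the strand setting of the counting are not given in the sources used here, and the table's name refers to a first run, so depth is that of this table (31.8 to 54.0 M counts per tumour).

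All computation began from these counts. Names and coordinates came from GENCODE M21 by identifier (36796 of 36854 genes named), and promoter sequences from RefSeq. Within each tumour kind, 4 groups were fitted together with edgeR 4.0.16 (R 4.3.3): filterByExpr by group, TMM scaling and the quasi-likelihood F test, with Benjamini-Hochberg adjustment across every tested gene and a threshold of 0.05. The biological coefficient of variation was 0.375 in allografts and 0.50 in primary tumours. Primary and allograft groups were compared in fits of the 2 groups, and interactions with tumour kind in a fit of all 48. The SE is the size of the log2 fold change over the square root of F. Ratios to CD3 genes are log2 of counts plus 0.5, with 2-sided exact permutation tests over tumours; they were to be adjusted over the 80 tests of the members, and are given instead unadjusted and adjusted over all genes tested. The alternatives were DESeq2 1.42.0, size factors by RLE, no filter, 3 covariates, other sets of samples, each tumour left out and, for ratios, other references and a pseudocount of 5. Tested on simulated data with 200 changed genes, the fit recovered 37% of 2-fold and 73% of 4-fold changes for 20 Gy in allografts with 5 false calls, and 43% and 85% in primary tumours with 7 false calls.

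The rule for named genes takes all 8 members and Cd3e, Cd4, Cd8a and Ptprc in every comparison, up to 4 called genes with the smallest p per pathway list, and the 3 nearest non-member genes of each member among those with a mean of at least 1 CPM (prior count 2). Beyond the rule, Tnfsf9, Icosl, Ccl1, Ctla4, Gpr83, Nrp1, Jak3, the called lineage markers and other genes given as not called were named after their values were seen. The members and lists were chosen with earlier results of these data known.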

Additional observations from a re-analysis of the deposited data

Results flagged for a closer look

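Among 64 sets of 1 member in 1 group, 12 had a tumour set far from the others of its group by Dixon's criterion. Its limits assume normally spread values and were applied to CPM without a log. The sets also share the same tumours, so this number is a description and is not set against a chance rate. Primary tumour 4 of the 20 Gy with anti-PD-1 group accounts for 5 of them, being the highest in Foxp3 (22.4 CPM, next 4.91), Ikzf2 (23.5, next 10.4), Ccr8 (4.96, next 1.0), Tnfrsf4 (13.3, next 6.00) and Icos (27.2, next 8.08). Its Cd3e, Cd4 and Cd8a were 46.8, 60.9 and 40.3 CPM, and its Ptprc 386 CPM. Primary tumour 4 of the 0 Gy with isotype group was highest in Tnfrsf9 (26.9 CPM, next 5.93) and in Tnfrsf18 (6.49, next 3.46). It also had the highest Cd3e (7.98 CPM) and Ptprc (146 CPM) of its group, and its Foxp3 was 2.69 CPM, within the range of its group.

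In allografts, tumour 4 of the 20 Gy with anti-PD-1 group was highest in Foxp3 (6.32 CPM, next 2.65) and Il2ra (20.0, next 11.5), with Cd3e at 17.7 CPM, inside the range of its group. Tnfrsf18 was highest in tumour 2 of the 0 Gy with isotype group (6.28 CPM, next 4.26) and in tumour 3 of the 20 Gy with isotype group (8.25, next 6.05). Ikzf2 was lowest in tumour 4 of the 0 Gy with isotype group (6.25 CPM, next 7.47). No cause was tested for any of these.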

How the results depend on the processing

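No paired analysis was run, since the labels give each tumour its own animal identifier and name no pairing between groups. No called member changed direction under any edgeR or DESeq2 alternative. Of all 168 estimates of a member in a comparison, called or not, 53 changed sign under at least 1 alternative, of which 51 were smaller than their SE; the other 2 (Icos for 20 Gy with anti-PD-1 and Ccr8 for the combination, in primary tumours) did so without tumour 4 of the 20 Gy with anti-PD-1 group. The number of members called for the combination in allografts was 3, but 4 under DESeq2 (with Foxp3), 0 in the fit of all 48 tumours and 1 to 3 with 1 tumour left out. For 20 Gy with isotype in primary tumours it was 2, but 3 under DESeq2 and in the fit of all 48, 1 without the low-count filter and with Xist or muscle content as a covariate, and 1 to 4 with 1 tumour left out; for the combination in primary tumours it was 2, but 1 with either covariate and in the fit of 2 groups, and 1 to 4 with 1 tumour left out. Between kinds it was 1 with isotype at 0 Gy (0 to 3 with 1 tumour left out) and 2 with anti-PD-1 at 0 Gy (0 with the identifier digit as a covariate and in the fit of all 48, 0 to 2 with 1 tumour left out). In the other 16 comparisons the number was 0 under every alternative run. Tnfrsf4 was the added call for 20 Gy with isotype in primary tumours (edgeR adjusted p 0.0813, DESeq2 0.0425, edgeR fit of all 48 0.0344). Of ratio tests within kinds 0 passed adjustment, and 15 did with Ptprc as the reference, all but 1 of them lower, in comparisons where 69.4% to 76.8% of all genes were lower. The lower ones were in allografts, at the smallest exact permutation p that 4 against 4 can give. With Ptprc 41 of the 80 differences within kinds changed sign, which are not separate reversals, since all members of a comparison shift by the same amount. After 20 Gy with anti-PD-1 in primary tumours Foxp3 went from 0.18 to -1.66 and Ikzf2 from 0.87 to -0.97 (exact permutation p 0.00264 and 0.00808). Among ratios past the threshold with CD3, the log2 ratio reversed to -0.51 for Il2ra after 20 Gy with isotype in allografts, to -0.57 for Tnfrsf4, -0.94 for Tnfrsf18 and -0.86 for Icos after 20 Gy with anti-PD-1 in primary tumours, and to -0.35 for Il2ra, -0.015 for Tnfrsf4 and -0.42 for Tnfrsf18 between kinds with isotype at 0 Gy. Within a comparison this shift is the change of Ptprc relative to the CD3 counts, and the cause of that change was not tested. Ccr8, near 1 CPM or below, is the member most limited by depth.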
